A study of Mus musculus with 6 samples.

Results

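The purinergic genes described here are 10 mouse genes that sense or break down extracellular nucleotides and adenosine. They are the ATP-gated channels P2rx4 and P2rx7, the G protein-coupled nucleotide receptors P2ry2, P2ry6, P2ry13 and P2ry14, the ectonucleotidases Entpd1 (CD39) and Nt5e (CD73), and the adenosine receptors Adora2a and Adora2b. All spots other than controls whose accession maps to one of these genes in RefSeq were taken, and every probe was kept, which gave 15 probes out of 56605 on the array and 10 genes out of 23462 that could be matched to RefSeq. The measurements came from 6 Agilent one-colour arrays of BV2 cells, an immortalized mouse microglial line, 3 from cells without and 3 from cells labelled with PGC-1α overexpression. PGC-1α is a transcriptional coactivator known for driving mitochondrial gene programmes. LPS, a bacterial membrane component that triggers an inflammatory response, had been given to both groups, so no array shows unstimulated cells. The cell culture methods, which do not name the arrays, give 500 ng/ml for 6 h. In those methods the PGC-1α coding sequence was delivered by a lentivirus with a ubiquitin promoter, followed by puromycin selection. A negative control virus is also described, but the labels do not say whether the control arrays carried it. Nothing says that the 3 arrays of a group came from separate cultures, so the p-values measure only the spread between these samples. Each array measured RNA of a whole culture, and a smaller share of expressing cells cannot be told apart from less RNA per cell.

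Injured and stimulated cells release ATP, which opens P2X channels and activates P2Y receptors on microglia. P2X7 needs high ATP concentrations, and the potassium that leaves the cell through it is the classical trigger of the NLRP3 inflammasome. CD39 removes phosphates from ATP and ADP to give AMP, and CD73 converts AMP to adenosine, which restrains inflammatory cells mainly through the cAMP-raising receptors encoded by Adora2a and Adora2b.

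The members' changes went both ways. On the arrays labelled PGC-1α overexpression, Adora2b was 7.05-fold, P2ry2 3.13-fold and 1 of 3 P2rx7 probes 3.21-fold lower than in the control, P2ry6 was no longer above background under the main background correction, and Adora2a was 2.30-fold higher. P2rx4 and Entpd1 showed small differences that depended on the probe or the scaling, and P2ry13, P2ry14 and Nt5e were not measured above background on any array.

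The promoters of Adora2b and P2ry2, single-probe genes that fell, and of both annotated starts of P2rx7, whose probes differed, are shown here. Each line holds the 250 bases before a transcription start, read 5′ to 3′ on the gene's strand, from RefSeq on GRCm38.p6. Capitals mark the hypoxia response element core (ACGTG or GCGTG) or the AP-1 site (TGANTCA) on either strand.
Adora2b, plus strand, chr11:62248734-62248983: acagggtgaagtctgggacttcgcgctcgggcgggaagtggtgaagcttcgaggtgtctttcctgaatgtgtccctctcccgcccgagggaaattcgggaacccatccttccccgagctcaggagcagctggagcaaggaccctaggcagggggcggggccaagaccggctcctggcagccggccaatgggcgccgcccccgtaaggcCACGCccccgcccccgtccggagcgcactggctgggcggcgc
P2ry2, minus strand, chr7:101011999-101012248: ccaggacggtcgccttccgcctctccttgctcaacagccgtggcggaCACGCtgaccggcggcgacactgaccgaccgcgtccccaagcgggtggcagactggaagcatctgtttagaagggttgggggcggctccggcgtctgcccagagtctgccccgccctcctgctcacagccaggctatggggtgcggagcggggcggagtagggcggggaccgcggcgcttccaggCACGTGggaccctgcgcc
P2rx7, plus strand, first start, chr5:122643677-122643926: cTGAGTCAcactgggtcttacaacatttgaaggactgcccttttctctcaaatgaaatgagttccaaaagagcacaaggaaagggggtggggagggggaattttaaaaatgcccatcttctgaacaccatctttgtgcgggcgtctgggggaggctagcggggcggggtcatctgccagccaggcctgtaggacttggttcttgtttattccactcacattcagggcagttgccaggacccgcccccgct
P2rx7, plus strand, second start, chr5:122650133-122650382: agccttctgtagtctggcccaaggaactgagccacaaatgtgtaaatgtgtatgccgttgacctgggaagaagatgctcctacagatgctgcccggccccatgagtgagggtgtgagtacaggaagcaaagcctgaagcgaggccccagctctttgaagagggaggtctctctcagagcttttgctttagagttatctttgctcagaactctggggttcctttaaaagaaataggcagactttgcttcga
Windows were available for 8 of the 10 genes, 14 in all, and none was at hand for Adora2a or P2ry6. In the Adora2b window the hypoxia core lay 42 to 38 bases before the start. In this P2ry2 window it lay at 203 to 199 bases and, on both strands with overlapping letters, at 18 to 13 bases before the start. The other P2ry2 window, not printed, held it at 148 to 144 bases only. The core also lay in windows of Entpd1, whose probes gave small changes, and of Nt5e, P2ry13 and P2ry14, whose changes could not be measured. The first P2rx7 window held an AP-1 site at 249 to 243 bases, and the second held none of the motifs searched. AP-1 sites also lay in windows of P2ry14, at 202 to 196 bases in one and 144 to 138 bases in another. The element bound by the oestrogen-related receptors, partners of PGC-1α (TNAAGGTCA), the cAMP response element (TGACGTCA) and the NF-κB consensus had no match in any of the 14 windows. Of all 32851 windows of this length, 38.6% held the hypoxia core, 6.75% the AP-1 site, 1.14% the oestrogen-related receptor element, 1.55% the cAMP element and 7.25% the NF-κB consensus. A match describes letters only, since no binding was measured here.

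Every array labelled PGC-1α overexpression was dimmer than every control array, with a 75th percentile of spot intensity of 856 to 1268 against 1617 to 1893. Intensities were therefore taken as log2 relative to the 75th percentile of their own array, and a log2 fold change is overexpression minus control on that scale. All tested probes together had a median log2 fold change of 0.25, which quantile normalization brought to 0.05, and changes are also given relative to that median. Ppargc1a, the targeted gene, was near background, with intensities of 21.8, 19.6 and 9.06 in the control and 22.3, 22.1 and 21.2 with overexpression at 1 probe. Its other probe gave 14.1, 20.3 and 13.8 against 9.07, 12.4 and 15.0, so the gene gives no firm check of the labels. All 12 microglia and macrophage markers examined were well above background on all 6 arrays, whereas the homeostatic microglial markers P2ry12, Cx3cr1, Sall1 and Gpr34 were not on any. Relative to the 75th percentile, the summed fibroblast markers (Col1a1, Col1a2, Col3a1, Dcn and Pdgfra, 4 of 5 above background on all 6 arrays) lay at 15.4 to 16.6 in the control and 26.6 to 32.0 with overexpression, and the summed neuronal markers (3 of 7, with Syt1, Gad1 and Slc17a7 not above background on any array) at 24.3 to 29.7 and 36.5 to 49.9. Single markers did not all follow these sums. Most of the neuronal sum was Snap25, with a log2 fold change of 0.71, or 0.08 after quantile normalization (adjusted p = 0.603 by limma), and Tubb3 was lower (-0.63). Most of the fibroblast sum was Col1a1, with 0.77, or 0.22 after quantile normalization (adjusted p = 0.142 by limma), and Pdgfra was lower (-1.63). The summed microglia and macrophage markers lay at 115 to 123 and 164 to 195. Of these 12 markers 7 passed as higher by limma, but after quantile normalization 0 were higher and 1 was lower. The part of these shifts in the results was not tested.

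Testing required a signal well above background on every array of the control or of the overexpression group, and 11 of the 15 member probes, from 7 of the 10 genes, met this. By limma with adjustment over all 38920 tested probes and a threshold of 0.05, 6 of the 11 changed, against 53.8% of all tested probes. Of the 6, 5 were lower (18.4% of all tested probes were lower) and 1 was higher (35.4% were higher). The share of members that changed was thus near the background. P2ry6 is among the lower probes here and in the counts that follow. It entered through the control group alone, being well above background on no overexpression array, so the filter itself favoured a decrease. Among probes well above background on all 6 arrays, which leaves out P2ry6, 5 member probes and 18508 of all probes passed. How many probes were tested under that filter is not given, so no share is read from these counts. The median log2 fold change of the 11 probes was -0.31, below the median of all probes. A change of at least 1 log2 unit from that median together with an adjusted p under the threshold was seen for 4 of the 11, all lower, and for 15.6% of all probes (12.1% lower, 3.5% higher). The 2 groups did not overlap for 9 of the 11, against 63.6% of all tested probes with a value on every array (22.2% lower, 41.4% higher). After quantile normalization 7 of the 11 passed, 6 lower and 1 higher, against 43.5% of all probes (20.6% lower, 22.9% higher). A two-sided exact permutation test of 3 arrays against 3 cannot give a p below 0.1, and every member probe whose groups did not overlap reached it.

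**Figure D1:**
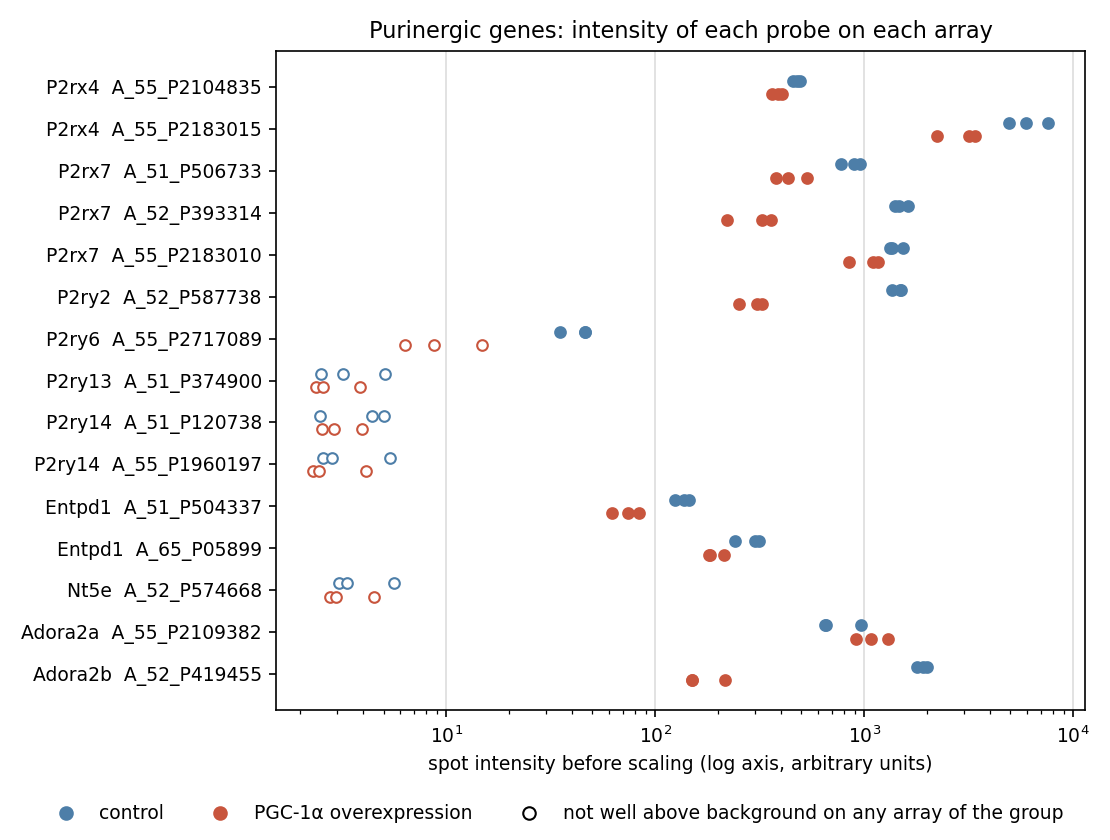
Spot intensity before scaling (log axis, arbitrary units) of each of the 15 probes on the 3 control and the 3 overexpression arrays, with open symbols where no array of the group was well above background. The control and overexpression points of Adora2b, P2ry2 and the P2rx7 probe A_52_P393314 lie far apart, and the P2ry13, P2ry14 and Nt5e probes lie between 2.30 and 5.64.

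P2rx4, an ATP-gated cation channel that rises in activated microglia, was measured by 2 probes that differed. The brighter probe, A_55_P2183015, read 5936, 4899.6 and 7594 on the control arrays and 3180.5, 2227 and 3389 with overexpression. All 3 overexpression arrays lay below all 3 control arrays, also after scaling (1.82 ± 0.21 against 1.42 ± 0.04, SD, n = 3 each). Its log2 fold change was -0.40 (SE 0.15, adjusted p = 0.0485 by limma), and -0.59 after quantile normalization (adjusted p = 0.0146 by limma). This call was close to the threshold and was lost in 5 of the 6 limma fits that left out 1 array, with adjusted p of 0.0874 to 0.159 without control replicate 1 or 3 or without any 1 overexpression array, and without the filter on dim probes (adjusted p = 0.0956). The other probe, A_55_P2104835, read 479, 492 and 456 against 405, 387 and 360.2, and its groups overlapped after scaling. Its log2 fold change was 0.35 (SE 0.20, 95% interval -0.10 to 0.81, adjusted p = 0.158 by limma).

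P2rx7 was measured by 3 probes, each annotated to a different RefSeq transcript, and they gave different answers. Probe A_52_P393314 read 1624, 1405 and 1460.2 on the control arrays and 358, 219.6 and 322 with overexpression. The highest overexpression array was thus far below the lowest control array. The scaled log2 level was -0.19 ± 0.19 against -1.88 ± 0.16 (SD, n = 3 each), a log2 fold change of -1.68 (SE 0.16, adjusted p = 0.00026 by limma), and -1.93 relative to the median of all probes. On slide 1 the difference was -1.72 and on slide 2 it was -1.60. Slide 1 held replicates 1 and 2 of each group and slide 2 held replicate 3. Every slide 2 value given here therefore sets 1 array against 1.
Probe A_51_P506733 read 954, 774 and 888 against 429.8, 377 and 534. It did not pass, although its groups did not overlap, with a log2 fold change of -0.31 (SE 0.15, 95% interval -0.66 to 0.04, adjusted p = 0.112 by limma). Probe A_55_P2183010, the brightest over all arrays, read 1358, 1326 and 1537 against 1095, 844 and 1162, lower on each overexpression array before scaling and higher on each after it. Its log2 fold change of 0.21 (SE 0.12, 95% interval -0.07 to 0.49, adjusted p = 0.177 by limma) was -0.04 relative to the median of all probes. The gene's direction therefore depended on the probe: the brightest probe gave 0.21, and the mean of the 3 probes, a summary chosen after the data were seen, gave -0.60 (adjusted p = 0.0050 by limma). The 3 changes spanned 1.89 log2 units, and 6.62% of the 1087 genes with 3 tested probes spanned at least as much (median 0.52). Where the probes lie within the transcripts is not known here.

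**Figure D2:**
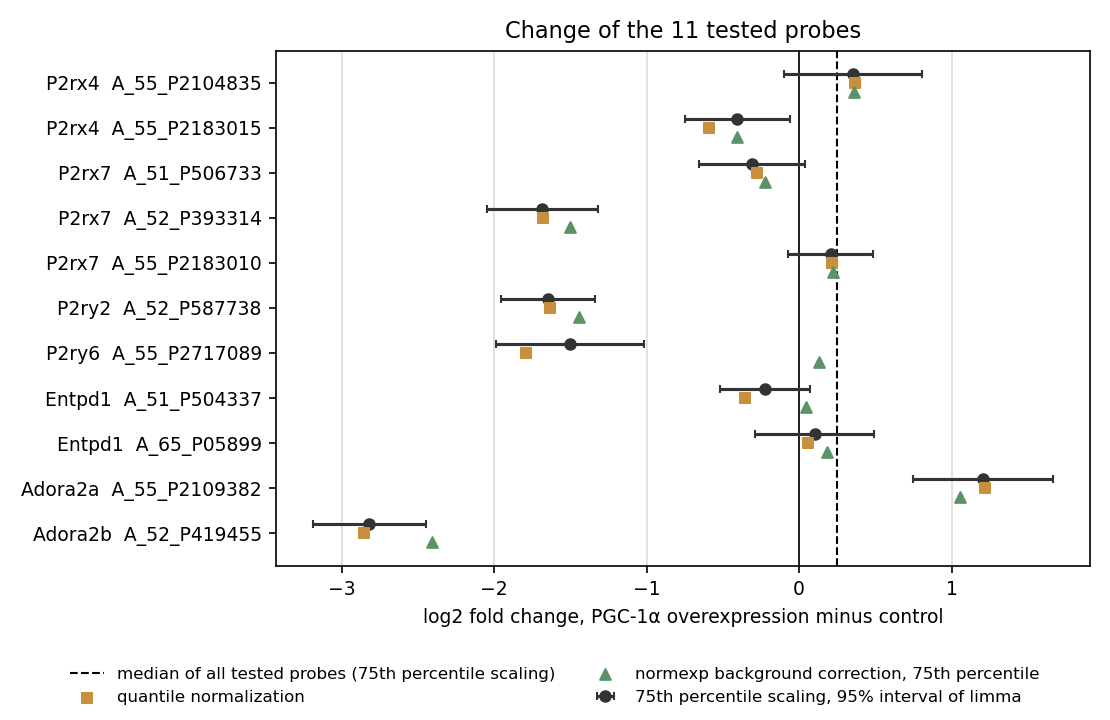
Log2 fold change, overexpression minus control, of the 11 tested member probes with its 95% interval from limma (circles), beside the values after quantile normalization (squares) and after another background correction, normexp (triangles). The dashed line marks the median of all probes, 0.25; Adora2b, P2ry2 and 1 P2rx7 probe lie to the left and Adora2a to the right of it under each setting, whereas P2ry6 lies at 0.13 with normexp.

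Among the P2Y receptors, P2ry2, the Gq-coupled receptor for ATP and UTP, changed most clearly. It read 1480.4, 1364 and 1497 on the control arrays and 305, 253 and 322 with overexpression. The groups were far apart and each was tight, with scaled log2 levels of -0.24 ± 0.11 and -1.89 ± 0.11 (SD, n = 3 each). The log2 fold change was -1.65 (SE 0.13, adjusted p = 0.00015 by limma), and -1.89 relative to the median of all probes. It was -1.65 on slide 1 and -1.64 on slide 2, which held 1 array of each group.
P2ry6, the UDP receptor linked to microglial phagocytosis, was dim. It read 45.9, 35.0 and 45.8 on the control arrays, where it was well above background, and 8.75, 6.31 and 14.8 with overexpression, where it was not on any of the 3. The overexpression level is therefore uncertain, and against a detection floor P2ry6 was 1.93-fold lower there. The floor is the mean, over the overexpression arrays, of the lowest signal still well above background, or of the probe's own signal where that was higher. That lowest signal comes from any spot of the array, so 1.93 is not a strict minimum. The fitted log2 fold change was -1.50 (SE 0.21, adjusted p = 0.0014 by limma). With normexp in place of the scanner's background subtraction it was 0.13 under 75th percentile scaling (adjusted p = 0.417 by limma) and -0.32 after quantile normalization (adjusted p = 0.0336 by limma), so the size of this decrease, and under 75th percentile scaling its direction, depended on the background correction.
P2ry13, a receptor for ADP, and P2ry14, the UDP-glucose receptor measured by 2 probes, read between 2.30 and 5.39 on every array and were not well above background on any. No change can be given for either gene.

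The ectonucleotidases gave little measurable difference. Nt5e read 3.05, 3.35 and 5.64 against 2.78, 2.96 and 4.50, and was not well above background on any array. Entpd1 was measured by 2 probes. The first, A_51_P504337, read 124, 137 and 144 on the control arrays and 74.4, 61.7 and 83.7 with overexpression, without overlap. Its log2 fold change was -0.23 (SE 0.13, 95% interval -0.52 to 0.07, adjusted p = 0.167 by limma). Quantile normalization moved it past the threshold, to -0.36 (adjusted p = 0.0355 by limma). With normexp it was 0.04 under 75th percentile scaling (adjusted p = 0.793 by limma) and -0.23 after quantile normalization (adjusted p = 0.0666 by limma). The second, A_65_P05899, read 312, 241 and 301 against 183, 180.4 and 214, and its groups overlapped after scaling, with a log2 fold change of 0.10 (SE 0.17, 95% interval -0.29 to 0.49, adjusted p = 0.631 by limma).

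The 2 adenosine receptors moved in opposite directions. Adora2b, the low-affinity receptor, read 1902, 1785 and 1986 on the control arrays and 149, 150.3 and 216 with overexpression. No other tested member changed by as much. The scaled log2 level was 0.15 ± 0.08 against -2.67 ± 0.25 (SD, n = 3 each), a log2 fold change of -2.82 (SE 0.16, 95% interval -3.19 to -2.45, adjusted p = 4.7e-05 by limma) and -3.06 relative to the median of all probes. It was -2.92 on slide 1 and -2.62 on slide 2.
Adora2a, the high-affinity adenosine receptor that LPS is known to induce in macrophages, read 656, 651 and 966 on the control arrays and 915, 1075 and 1295 with overexpression. Before scaling, overexpression replicate 1 lay below control replicate 3, and after scaling the groups did not overlap, at -1.20 ± 0.20 and 0.01 ± 0.33 (SD, n = 3 each). The log2 fold change was 1.20 (SE 0.20, 95% interval 0.75 to 1.66, adjusted p = 0.0026 by limma), 0.96 relative to the median of all probes, and 1.31 and 1.00 on slides 1 and 2.

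Differences between 2 probes of the same array do not depend on the scaling between arrays, and 6 such pairs were compared. For Adora2b minus Adora2a the log2 difference was 1.34 ± 0.27 in the control and -2.68 ± 0.14 with overexpression (SD, n = 3 each), a shift of -4.02. Only the shift is meaningful, since the intensities of different probes are not comparable levels. Between the P2rx7 probes, A_52_P393314 minus A_55_P2183010 shifted by -1.89 and A_51_P506733 minus A_55_P2183010 by -0.52. P2rx4 A_55_P2104835 minus A_55_P2183015 shifted by 0.76, and the brightest P2rx7 probe minus the brightest P2rx4 probe by 0.61. In each of these 5 pairs the groups did not overlap, which gave the smallest p the design allows (exact permutation test, two-sided, p = 0.1 each, 0.12 after adjustment over the 6 pairs). The Entpd1 probes shifted by -0.33 (exact permutation p = 0.2, adjusted 0.2). P2ry6 with P2ry2, P2ry13 with P2ry14 and Entpd1 with Nt5e could not be compared, since at least 1 gene of each pair was not above background on any array of a group.

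**Figure D3:**
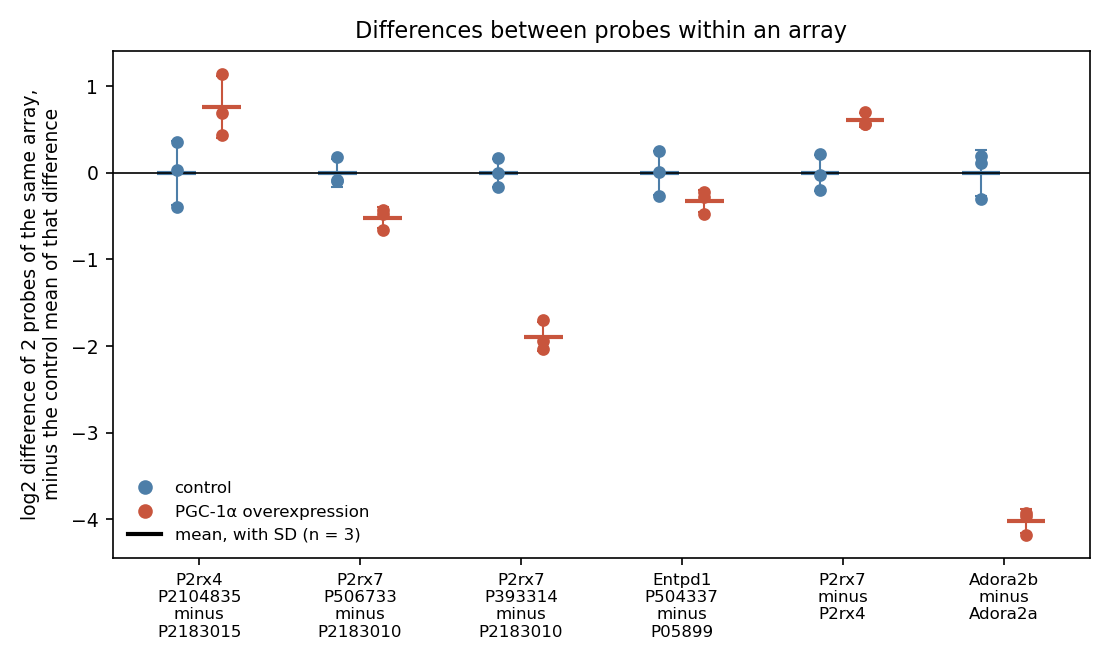
Difference of log2 intensity between 2 probes of the same array for the 6 pairs, with the control mean of each pair set to 0; points are arrays, and bars give the mean and SD (n = 3). The overexpression arrays of Adora2b minus Adora2a lie about the mean shift of -4.02, and the groups of the Entpd1 pair lie closest together, with a shift of -0.33.

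The rest of the purinergic pathway was described with 82 further genes in 8 groups, each gene by its brightest tested probe. Of these, 71 were tested and 37 passed, 22 higher and 15 lower, against 53.3% of all genes so represented (34.8% higher, 18.5% lower). After quantile normalization 13 were higher and 21 lower, so the balance of directions in this set turned with the scaling. The median log2 fold change of the 71 was 0.15, or -0.09 relative to the median of all probes. The lists were chosen with earlier results of these data known, and the counts of single groups were not tested against all genes. Each count of a group below is to be read beside the same shares, 34.8% higher and 18.5% lower. After quantile normalization, 22.9% of all probes were higher and 20.6% lower.

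Of the other P2X receptors, 3 of 5 were higher, P2rx2 (0.53), P2rx3 (0.73) and P2rx5 (0.55), named after their values were seen. Only P2rx3 still passed after quantile normalization, and the 2 tested P2rx5 probes gave 0.55 and -0.71. Of the other P2Y receptors, 4 of 5 were not above background on any array, among them P2ry12, the ADP receptor of resting microglia (2.65 to 6.11). The other adenosine receptors were both higher under the 75th percentile scaling. Adora3 read 79.5, 75.3 and 97.7 against 94.3, 91.2 and 93.7, a log2 fold change of 0.82 (adjusted p = 0.0057 by limma) where the intensities themselves overlapped. Adora1, with 0.60 (adjusted p = 0.0416 by limma), missed the threshold after quantile normalization at 0.57 (adjusted p = 0.0518 by limma).

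Of 12 tested ectonucleotidases and nucleotide hydrolases besides the members, 4 were higher and 1 was lower. Entpd8, which like CD39 hydrolyses nucleoside triphosphates and diphosphates, read 80.6, 112 and 87.3 against 141, 145 and 135, every overexpression array above every control array (log2 fold change 1.27, adjusted p = 0.0033 by limma). Of 15 tested genes of adenosine transport and metabolism, 3 were higher and 2 lower, and the 2 lower ones had the larger changes. Ampd3, an AMP deaminase that diverts AMP to IMP, read 2378, 2314 and 2643 against 404, 241 and 498, a log2 fold change of -2.08 (SE 0.16, adjusted p = 0.00011 by limma). Slc29a3, an equilibrative nucleoside transporter of intracellular membranes, read 2826, 2791 and 2587 against 639, 472 and 633 (-1.58, adjusted p = 0.00026 by limma).

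Of 9 tested channels and transporters that release nucleotides, 5 were lower and 1 was higher under both scalings, with a median log2 fold change of -0.50. Of all genes so represented, 18.5% were lower and 34.8% higher under 75th percentile scaling. Whether this group differs from all genes was not tested. Calhm2, of the calcium homeostasis modulator channels, read 524, 477 and 514 against 194, 131 and 171 (-0.96, adjusted p = 0.0018 by limma). Lrrc8d, a subunit of the volume-regulated anion channel, read 2234, 2458 and 2807 against 856, 642 and 955 (-0.96, adjusted p = 0.00093 by limma). The others that fell were Panx1 (-0.59), Lrrc8a (-0.50) and Calhm6 (-0.74), and Calhm1 was higher (0.75), these 4 named after their values were seen. All 5 that fell were dimmer on every overexpression array, which is no separate evidence, since these arrays were dimmer as a whole.

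Of 12 genes linked to inflammasome activation, 3 were higher and 2 lower, and 1 and 5 after quantile normalization. Nlrp3, the inflammasome sensor, read 1182, 1126 and 1145 against 206, 215 and 278, a log2 fold change of -1.65 (SE 0.17, adjusted p = 0.00037 by limma). Txnip, a thioredoxin-binding protein that can engage NLRP3, read 25170.4, 24947 and 25510 against 40553, 34662 and 42125 (1.29, adjusted p = 0.00051 by limma), and 0.68 after quantile normalization. Its other probe gave 0.46 (adjusted p = 0.0203 by limma), or -0.15 after quantile normalization. Il1b, the substrate of the pathway, read 184, 194 and 191 against 98.3, 71.5 and 117 at its brighter probe, a log2 fold change of -0.35 that missed the threshold (adjusted p = 0.0537 by limma), passed after quantile normalization (-0.46, adjusted p = 0.0198 by limma) and was near 0 with normexp under 75th percentile scaling (0.0030). Its other probe read 156, 161 and 175 against 35.9, 29.0 and 54.6. The log2 fold change there was -1.43 (SE 0.16, adjusted p = 0.00051 by limma), or -0.55 with normexp under 75th percentile scaling (adjusted p = 0.0048 by limma). The adaptor Pycard gave 0.50 (adjusted p = 0.0419 by limma) and 0.41 after quantile normalization (adjusted p = 0.0681 by limma), and Casp1, which cleaves the cytokine, -0.22 (adjusted p = 0.28 by limma).

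Of 15 genes of A2 receptor signalling through cAMP, 6 were higher and 5 lower. Adcy9, an adenylyl cyclase, read 599.8, 547 and 505 against 114, 78.9 and 105 (-1.83, adjusted p = 0.00022 by limma). Nr4a1, an immediate early nuclear receptor, read 859, 727 and 914 against 201, 113 and 258 (-1.54, adjusted p = 0.00071 by limma). The cAMP phosphodiesterases Pde4b and Pde4a changed by -1.31 and -0.76 (adjusted p = 0.00027 and 0.0036 by limma), and the less bright probe of each gave -2.70 and -1.21. In all 4 genes every overexpression array lay below every control array before scaling. This is no separate evidence, since these arrays were dimmer as a whole. Even after scaling, 22.2% of all tested probes with a value on every array were lower without overlap.

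**Figure D4:**
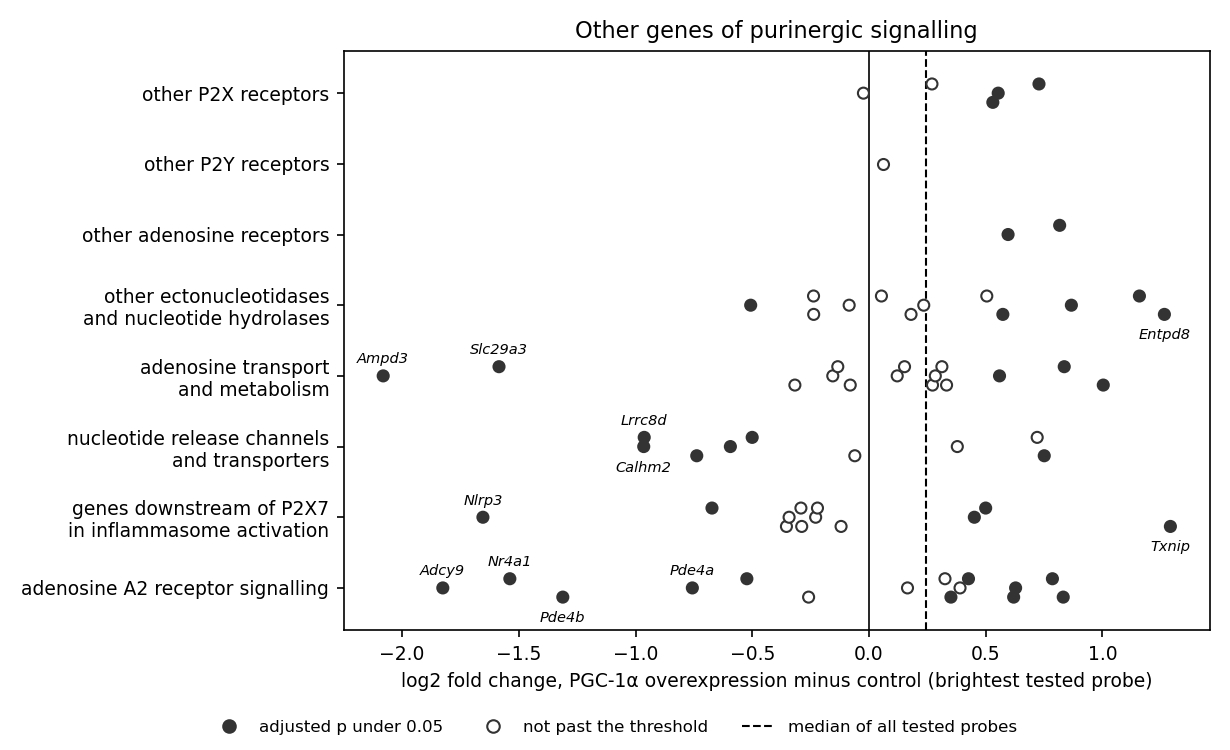
Log2 fold change, overexpression minus control, of the 71 tested further purinergic genes in their 8 groups, filled where the adjusted p from limma was under 0.05; the dashed line marks the median of all probes, 0.25. Ampd3 lies farthest to the left at -2.08 and Txnip farthest to the right at 1.29.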

How the data were processed

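RNA of LPS-stimulated BV2 cells was hybridized to 6 Agilent arrays, 3 per group, grouped by the sample titles. The authors deposited scanner intensity values, background-subtracted and detrended by Agilent Feature Extraction 11.5 with no normalization between arrays, and a table of log2 values for 42110 probes normalized by the authors in GeneSpring by an unnamed procedure, used as an alternative. The dye is Cy3 in the labels and Cy5 in the protocol, and the scanner files used here hold a green channel only.

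Log2 intensity minus each array's 75th percentile over 59305 spots was tested on 38920 probes in R 4.3.3 with limma 3.58.1 (lmFit, eBayes), two-sided and adjusted by Benjamini-Hochberg. Outlier spots (149 to 1590 per array) were left out, and a probe needed values on 2 arrays of each group. The fit was also tested on simulated data. The number of arrays limits the precision. Promoters and figures used Python 3.11.15, numpy 2.4.6, pandas 2.3.3 and matplotlib 3.10.9. Members and gene lists were chosen with earlier results of these data known. Named pathway genes passed the threshold at least 1 log2 unit from the median of all probes, or were P2ry12, Adora1, Adora3, Nlrp3, Il1b, Casp1 and Pycard, and further ones are said to be named after their values were seen. Alternatives were another scaling, background correction, filter, variance model or feature set, slide or replicate blocks, outliers kept, the authors' values and each array left out. Coordinates of genes are not given, since the array design names an older assembly than the RefSeq table.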

Additional observations from a re-analysis of the deposited data

How the results depend on the processing

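Adora2b, Adora2a, P2ry2 and the P2rx7 probe A_52_P393314 kept their direction and their call under each alternative that could be run for them, with log2 fold changes of -2.93 to -2.41, 1.04 to 1.38, -1.76 to -1.44 and -1.79 to -1.50. The count of member probes past the threshold, 6, ranged from 5 to 7, and from 5 to 6 with 1 array left out. With normexp under 75th percentile scaling, P2ry6 turned to 0.13, Entpd1 A_51_P504337 to 0.045 and Il1b, at its brightest probe, to 0.0030, and with normexp and quantile normalization P2ry6 was -0.32 and Entpd1 A_51_P504337 -0.23. Entpd1 A_65_P05899 turned to -0.0093 with median scaling and to -0.022 without overexpression replicate 2. The mean of the tested probes of a gene in place of the brightest, chosen after seeing the data, turned P2rx7 from 0.21 to -0.60 and Entpd1 from 0.10 to -0.062, and P2rx4 gave -0.03. Of all 38920 probes 20943 passed, 15583 to 21565 with 1 array left out, and 9633 with 1 probe per RefSeq-matched gene, where fewer features were tested. The share of them that were higher, 65.9%, was 52.6% after quantile normalization (8908 higher, 8013 lower of 16921), 76.8% and 49.1% with normexp followed by 75th percentile scaling or by quantile normalization and 51.9% in the authors' values, and 61.6% to 68.0% with 1 array left out. Of the other purinergic genes 37 passed, 24 with no filter on dim probes, and 22 to 35 with 1 array left out, the lowest being 24 without control replicate 1, 24 without control replicate 3 and 22 without overexpression replicate 1; the cause was not tested. Correlations of same-numbered deviations were -0.21, 0.00 and 0.59, the last between the 2 arrays of slide 2. Between differently numbered arrays they ranged from -0.52 to 0.53. They cannot decide whether the replicate numbers pair the arrays, since the 3 deviations of a group are tied to one another. With the replicate number as a block, every member probe kept its call, P2rx4 A_55_P2183015 at an adjusted p of 0.0437 by limma and Adora2b at 0.00036. Dim probes are limited by the background, as for P2ry6.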
